A study of Mus musculus with 7 samples.

Results

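The 10 genes described here encode secreted cytokines of tumor inflammation, and they were followed in subcutaneous mouse pancreatic ductal adenocarcinoma (PDA) tumors. The members are *Il1a*, *Il1b*, *Il1rn*, *Il33* and *Il18* of the interleukin-1 (IL-1) family, *Il6*, *Lif* and *Il11* of the gp130 family, and the colony-stimulating factors *Csf1* and *Csf2*. They were chosen by name, as the rows of the deposited expression table that carry these symbols, and make up 10 of its 38026 genes. RNA was sequenced from 7 tumors taken 2 weeks after 1242 KPC cells were inoculated into C57BL/6 mice, with no treatment. In 4 tumors (sgScramble, replicates 1 to 4) the cancer cells carried a scrambled guide RNA, and in 3 (sgKRT19, replicates 5, 6 and 8) a guide RNA against *Krt19*, a keratin of simple epithelia. All the cells come from this 1 line, which was derived from a mouse pancreatic tumor. Per the study's methods, all were also transduced with Cas9 and a guide and selected with puromycin. The hosts were immunocompetent. The labels do not name the guide used, and they do not say whether the injected lines were clones, so an effect of a clone and an effect of the guide cannot be told apart.

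IL-1 family cytokines act as alarm signals. IL-1α and IL-1β bind the same receptor, which IL-1RA (*Il1rn*) blocks, whereas IL-18 and IL-33 each have a receptor of their own, and IL-1β and IL-18 are made as precursors that caspase-1 cuts. IL-6, LIF and IL-11 all signal through gp130 (*Il6st*), JAK kinases and STAT3, and in pancreatic tumors IL-1 is known to induce IL-6 and LIF in fibroblasts. CSF1 keeps macrophages alive through *Csf1r*, and CSF2 (GM-CSF) drives granulocytes, macrophages and dendritic cells.

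Values are normalized read counts, that is, reads per gene that the authors divided by a size factor for each library. Depth was 40781199 to 44972100 reads per library, and 3 reads, taken as the floor for detection, were worth a value of 2.74 to 3.47. *Krt19* was at 17841 to 27618 in the sgScramble libraries and at 1606 to 2470 in the sgKRT19 libraries. Summed skeletal muscle markers were at 111 to 173 in sgScramble 1, 2 and 4, at 2843 in sgScramble 3 and at 23563 to 32414 in the sgKRT19 libraries, so sgScramble 3 stood apart from its group. Without sgScramble 3, the same 5 cytokine genes passed the test as with it. Leaving it out does not separate muscle content from the guide, since the muscle markers still differ between the groups. For the cytokine values the 2 cannot be told apart. Summed epithelial markers did not overlap between the groups, at 136238 to 186403 in sgScramble and 278489 to 285640 in sgKRT19, and 5 of the 10 were higher and none lower. Most of each sum was *Krt8* and *Krt18*, both called higher. *Epcam*, *Sox9*, *Krt7*, *Cldn4* and *Cldn7* did not pass, with log2 fold changes of 0.064, −0.075, −1.03, −1.23 and 0.47. No sequencing date or library batch is given, so a batch that followed the groups cannot be told apart from them. The study calls the samples individual tumors and speaks of paired control and edited cells, whereas the labels give no pairing and number the tumors differently in each group, and none was used. The p-values measure the spread between these tumors. The study's methods name a stranded total RNA kit and the labels polyA RNA, and neither says whether reads were counted by strand.

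All 10 cytokine genes passed the filter on low values. Differences were tested on log2(value + 1) with limma across 21322 genes, and a gene was called when its Benjamini-Hochberg adjusted p was under 0.05. Of the 10, 3 were higher in sgKRT19 tumors (*Il1b*, *Il18* and *Csf2*), 2 were lower (*Il33* and *Lif*) and 5 did not pass. Of all genes tested 34.0% were called, 17.9% higher and 16.0% lower, so a call on its own was common in this comparison. Scaling by library size alone turned 3820 higher and 3420 lower genes into 2177 and 5727, and the members into 2 higher (*Il18* and *Csf2*) and 3 lower (*Il33*, *Lif* and *Il11*). The median log2 fold change of the 10 was 0.27, beside 0.0072 over all genes, and the median of its absolute size was 0.59, beside 0.37. The median of the 10 rested on single libraries, at 0.05 without sgKRT19 8, 0.15 without sgScramble 2 and 0.18 without sgKRT19 6, and it was 0.064 when scaling by library size alone and 0.41 over the members left by a filter of 50. That filter drops *Il6* and *Il11* and keeps *Csf2* through its sgKRT19 libraries alone, so the 0.41 is not on equal terms with the other medians. The groups did not overlap for 5 members (*Il1b*, *Il18* and *Csf2* higher, *Il33* and *Il11* lower), beside 41.1% of all genes (21.7% higher, 19.3% lower). The cytokine genes thus moved in both directions, and no family moved as a whole.

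**Figure D1:**
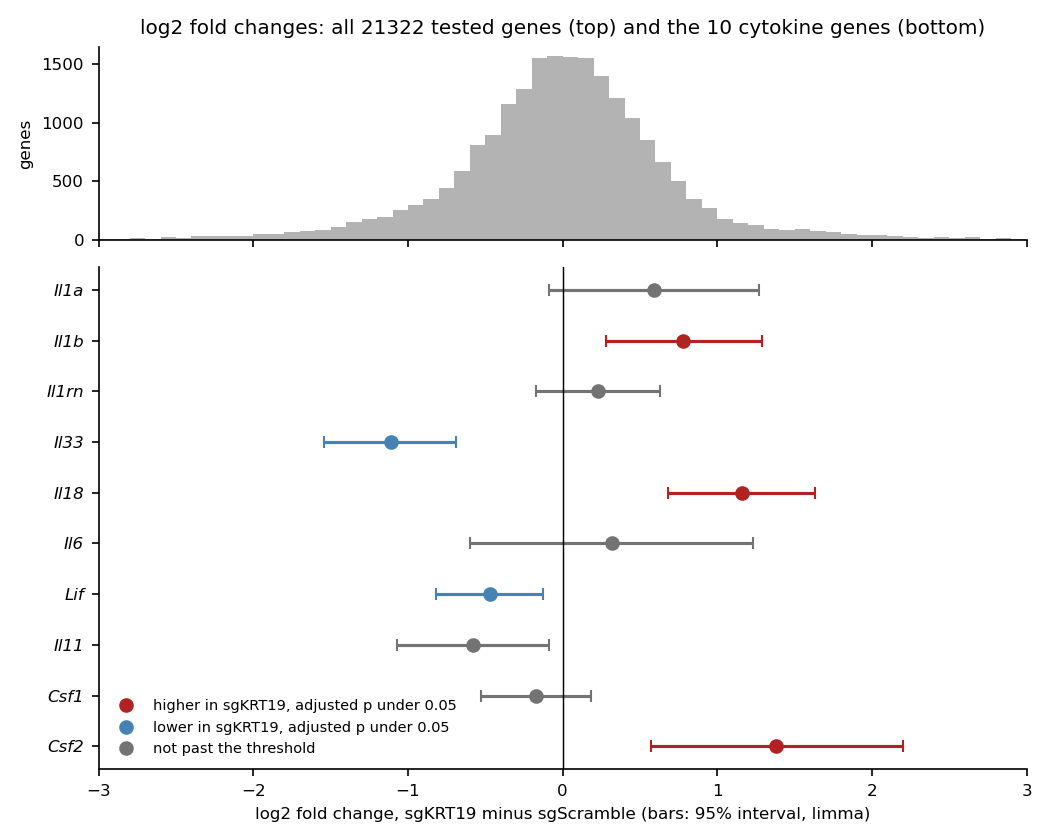
Log2 fold changes (x axis, sgKRT19 minus sgScramble) of all 21322 tested genes as a histogram (top, genes per bin of 0.1; 322 genes lie outside the range shown) and of the 10 cytokine genes with their 95% intervals from limma (bottom). *Il1b*, *Il18* and *Csf2* lie to the right of 0 and *Il33* and *Lif* to the left with intervals that do not reach 0 and an adjusted p under 0.05, and the interval of *Il11* ends just below 0 without a call.

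IL-33 was the cytokine with the highest level and the clearest fall. *Il33* (GRCm38 chr19:29925114-29960718, plus strand), which encodes a nuclear alarmin of epithelial, endothelial and stromal cells, was at 10125, 9343, 6057 and 8243 in sgScramble 1 to 4 and at 3349, 4807 and 3486 in sgKRT19 5, 6 and 8. The lowest sgScramble library, replicate 3, lay above the highest sgKRT19 library, replicate 6. The mean fell from 8442 ± 1768 (SD, n = 4) to 3880 ± 805 (SD, n = 3), a ratio of 0.46, and the log2 fold change was −1.11 with a standard error of 0.189 (95% interval −1.54 to −0.69, limma adjusted p = 0.0019). It lay at the 6.17th percentile of the log2 fold changes of all genes tested. Without each library in turn its log2 fold change was −1.28 to −1.02 and it stayed called. RefSeq gives *Il33* starts at 2 places, one 1 base from the GENCODE gene start and one 20676 bases further into the gene, and the table has 1 value per gene, so reads from the 2 starts were not separated. The 250 bases before each start, chr19:29924863-29925112 and chr19:29945540-29945789 (GRCm38.p6, plus strand, 5′ to 3′), are shown because they are the upstream sequences of the member that fell furthest, with matches to the motifs listed further on in capitals. TATAAA lies 203 bases before the first start and 29 before the second, and the second window also holds a C/EBP match 85 bases before its start.
*Il33* first start: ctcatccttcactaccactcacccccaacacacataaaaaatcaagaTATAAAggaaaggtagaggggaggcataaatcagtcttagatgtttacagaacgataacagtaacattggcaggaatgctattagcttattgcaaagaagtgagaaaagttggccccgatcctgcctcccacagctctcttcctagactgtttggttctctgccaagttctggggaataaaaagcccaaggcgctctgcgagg
*Il33* second start: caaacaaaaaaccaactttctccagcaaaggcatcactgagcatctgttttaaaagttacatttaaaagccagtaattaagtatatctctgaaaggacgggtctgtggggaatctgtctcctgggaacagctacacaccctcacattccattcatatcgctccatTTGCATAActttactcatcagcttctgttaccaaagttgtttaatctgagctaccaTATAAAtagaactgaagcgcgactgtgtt

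The IL-33 receptor gene did not pass the test. *Il1rl1*, which encodes the IL-33 receptor ST2, was at 84.5, 93.9, 191 and 208 in sgScramble 1 to 4 and at 126, 113 and 311 in sgKRT19 5, 6 and 8. These ranges overlap, and the log2 fold change was 0.30 with a standard error of 0.413 (limma adjusted p = 0.593). *Il1rap*, the accessory chain shared by the IL-1 and IL-33 receptors, was at 178 to 275 in sgScramble and 111 to 147 in sgKRT19, a log2 fold change of −0.66 with a standard error of 0.197 (adjusted p = 0.0278). The call of *Il1rap* was lost without sgScramble 4, sgKRT19 6 or sgKRT19 8, with adjusted p of 0.0701, 0.0582 and 0.0893. Cells that make or answer IL-33 were looked at through their markers. Summed fibroblast markers overlapped between the groups (101528 to 235754 in sgScramble, 117409 to 133286 in sgKRT19), and 0 of 10 were called by limma (0 at an unadjusted p under 0.05), with 0 called by edgeR and 1, *Lum*, by DESeq2. Most of each sum was the collagens *Col1a1*, *Col1a2* and *Col3a1*. The top of the range was sgScramble 4 alone, with the other sgScramble libraries at 101528 to 147836. Of 7 endothelial markers 4 were higher and none lower, with sums of 3978 to 5535 and 5867 to 7031. Of 7 mast cell and basophil markers none was higher and 1, *Mcpt8*, a basophil protease, was lower. Their sums were 847, 762, 2428 and 1185 in sgScramble 1 to 4 and 1874, 1414 and 1764 in sgKRT19 5, 6 and 8. The overlap of these sums rests on sgScramble 3, which lay above every sgKRT19 library, while the other sgScramble libraries lay below. The same held for *Cpa3*, *Mcpt4*, *Tpsb2* and *Cma1*, but not for *Kit*, *Ms4a2* or *Mcpt8*. The part of cell composition in the value of *Il33* was not tested. In bulk tumors fewer cells of a type and less RNA per cell cannot be told apart.

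IL-18 moved the other way. *Il18* (chr9:50554827-50581840, plus strand), whose product promotes interferon-γ production by T and NK cells, was at 269, 262, 350 and 187 in sgScramble 1 to 4 and at 675, 467 and 628 in sgKRT19 5, 6 and 8. Every sgKRT19 library lay above every sgScramble library. The mean rose from 267 ± 66.4 (n = 4) to 590 ± 109 (n = 3), a ratio of 2.21 and a log2 fold change of 1.16 with a standard error of 0.213 (95% interval 0.68 to 1.63, limma adjusted p = 0.0029), and it stayed called without each library in turn (1.0 to 1.32). The window upstream of its RefSeq start is chr9:50554450-50554699 (GRCm38.p6, plus strand), shown as the counterpart of the *Il33* windows. That start lies 127 bases before the GENCODE gene start, and the capitals mark TATAAA read on the opposite strand, 175 bases before it.
*Il18*: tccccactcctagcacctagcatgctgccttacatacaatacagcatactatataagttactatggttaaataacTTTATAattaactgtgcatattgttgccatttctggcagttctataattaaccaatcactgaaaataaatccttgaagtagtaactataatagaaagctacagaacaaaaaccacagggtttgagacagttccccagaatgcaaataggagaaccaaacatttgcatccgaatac

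Genes of IL-18 reception rose with it. *Il18r1* and *Il18rap* encode the 2 chains of the IL-18 receptor, which lie 14.5 kb apart on chromosome 1, and *Il18bp* encodes the soluble IL-18 binding protein that neutralizes it. *Il18rap* was at 1375, 1415, 970 and 1122 in sgScramble 1 to 4 and at 3195, 3959 and 4454 in sgKRT19 5, 6 and 8, a log2 fold change of 1.67 with a standard error of 0.161 (limma adjusted p = 9.99e-05). *Il18r1* had a log2 fold change of 1.04 with a standard error of 0.203 (adjusted p = 0.00393) and was higher in 3 of 3 sgKRT19 libraries than in any sgScramble library. *Il18bp* was even within each group, at 400 to 422 in sgScramble and 973 to 1059 in sgKRT19, a log2 fold change of 1.31 with a standard error of 0.106 (adjusted p = 4.56e-05). The difference *Il18bp* minus *Il18* within a library, on the log2(value + 1) scale, was 0.65 ± 0.39 in sgScramble and 0.81 ± 0.22 in sgKRT19, and the groups overlapped (exact two-sided permutation p = 0.514, adjusted p = 0.617 over 6 differences). Their difference of 0.15 was 0.0034 without sgScramble 3, 0.028 without sgKRT19 6, 0.32 without sgScramble 4 and 0.23 without sgKRT19 5. IL-18 receptor chains are carried by T and NK cells, and markers of these cells were looked at. Of 8 T cell markers 7 were higher and none lower, with sums of 472 to 915 in sgScramble and 2675 to 5056 in sgKRT19. Of 7 markers of NK and innate lymphoid cells 3 were higher (*Klrk1*, *Eomes* and *Gata3*) and none lower (sums 614 to 789 and 1146 to 1222). Most of the difference between these sums was *Klrk1*, with means of 100 in sgScramble and 379 in sgKRT19. *Ncr1*, *Klrb1c*, *Il7r* and *Rora* overlapped between the groups and were not called (limma adjusted p of 0.197, 0.0525, 0.0853 and 0.794). The part of T and NK cells in the values of *Il18r1* and *Il18rap* was not tested.

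**Figure D2:**
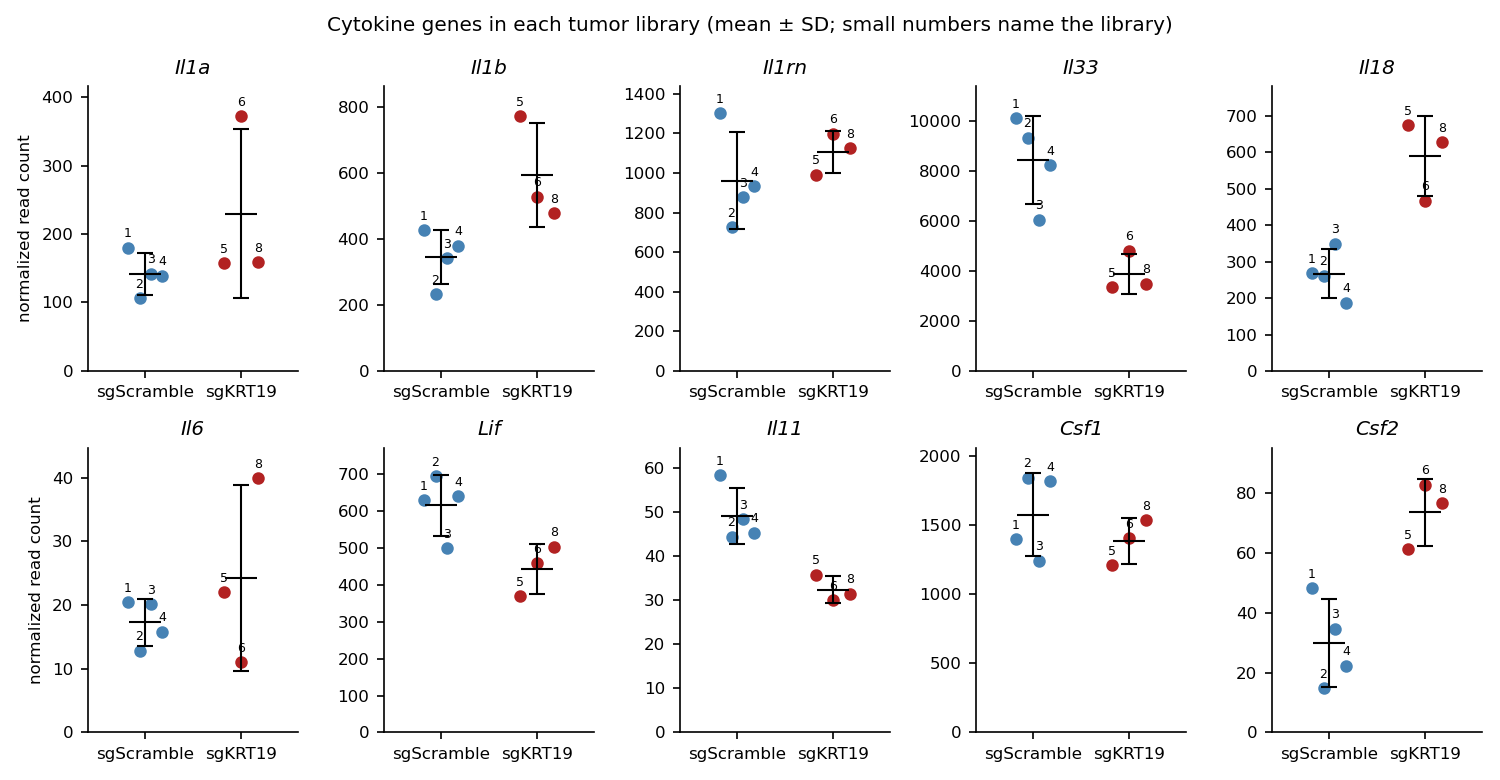
Normalized read counts (y axes, each from 0) of the 10 cytokine genes in 4 sgScramble libraries (blue) and 3 sgKRT19 libraries (red), 1 point per tumor with its replicate number, and the group mean ± SD in black. Points of the groups do not overlap for *Il1b*, *Il33*, *Il18*, *Il11* and *Csf2*, and replicate 6 for *Il1a* and replicate 8 for *Il6* lie apart from the rest of the sgKRT19 group.

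Of the 2 IL-1 agonists, *Il1b* rose and *Il1a* did not pass the test. *Il1b* (chr2:129364570-129371139, minus strand), made chiefly by activated myeloid cells, was at 427, 233, 341 and 380 in sgScramble 1 to 4 and at 773, 528 and 479 in sgKRT19 5, 6 and 8. The groups did not overlap, and the gap between sgScramble 1 and sgKRT19 8 was small beside the spread. The mean was 345 ± 82.7 (n = 4) and 593 ± 158 (n = 3), and the log2 fold change was 0.78 with a standard error of 0.228 (95% interval 0.28 to 1.29, limma adjusted p = 0.0246). The call was lost without sgScramble 2 (0.61, adjusted p = 0.0541), without sgKRT19 5 (0.58, adjusted p = 0.0992) and when scaling by library size alone (0.57, adjusted p = 0.0589). *Il1a* (chr2:129299610-129309972, minus strand), an alarmin active without caspase-1, was at 180, 106, 142 and 139 in sgScramble 1 to 4 and at 157, 372 and 159 in sgKRT19 5, 6 and 8. Replicate 6 alone lay above the sgScramble range. The log2 fold change was 0.59 with a 95% interval of −0.091 to 1.27 (limma adjusted p = 0.157), so the data allow both a slight fall and a rise by over 1 log2 unit. Of the exonic bases of *Il1a*, 11.2% are shared with *Gm14023* on the opposite strand, and of *Il1b* 1.3% with *Il1bos*. Neither partner was called, and whether the counting used strand is not stated.

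*Il1a* and *Il1b* are neighbours on chromosome 2, 54.6 kb apart and on the same strand, and their upstream windows are shown because 1 of the pair rose past the threshold. They span chr2:129309973-129310222 for *Il1a* and chr2:129371140-129371389 for *Il1b* (GRCm38.p6, minus strand). Each holds TATAAA, 32 and 31 bases before its start, and the *Il1a* window also holds an AP-1 match 12 bases before the start.
*Il1a*: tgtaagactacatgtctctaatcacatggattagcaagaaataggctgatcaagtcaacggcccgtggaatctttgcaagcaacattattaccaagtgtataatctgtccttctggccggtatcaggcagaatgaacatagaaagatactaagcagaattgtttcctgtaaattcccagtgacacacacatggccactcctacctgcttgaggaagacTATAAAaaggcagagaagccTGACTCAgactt
*Il1b*: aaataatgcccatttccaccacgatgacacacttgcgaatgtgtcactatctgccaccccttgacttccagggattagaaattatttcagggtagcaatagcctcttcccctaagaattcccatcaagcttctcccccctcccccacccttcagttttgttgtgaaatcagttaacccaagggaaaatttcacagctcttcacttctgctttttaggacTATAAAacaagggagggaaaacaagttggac

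The IL-1 receptor antagonist did not pass the test. *Il1rn* (chr2:24336853-24351494, plus strand) was at 1303, 727, 876 and 933 in sgScramble 1 to 4 and at 992, 1198 and 1125 in sgKRT19 5, 6 and 8. The ranges overlap, and sgScramble 1 lay above every sgKRT19 library. The log2 fold change was 0.23 with a standard error of 0.18 (95% interval −0.17 to 0.63, limma adjusted p = 0.336). *Il1rn* minus *Il1b* on the log2 scale was 1.61, 1.64, 1.36 and 1.29 in sgScramble 1 to 4 and 0.36, 1.18 and 1.23 in sgKRT19 5, 6 and 8. All 3 sgKRT19 libraries were below the 4 sgScramble libraries, with replicate 5 the lowest. The means were 1.47 ± 0.173 and 0.92 ± 0.489, a difference of −0.55, with an exact two-sided permutation p of 0.0571 and an adjusted p of 0.343 over 6 differences. The test doubles the smaller one-sided p, so with 4 against 3 libraries it could give nothing below 0.0571 and could not pass 0.05. This limit comes from the doubling and not from the number of libraries alone. Without sgKRT19 5 the difference was −0.27. *Il1rn* minus *Il1a* differed by −0.36 (exact permutation p = 0.4) and *Il1b* minus *Il1a* by 0.19 (exact permutation p = 0.629), and both overlapped between the groups. Single libraries set the size of both, since *Il1rn* minus *Il1a* was −0.0098 without sgKRT19 6 and −0.58 without sgKRT19 8, and *Il1b* minus *Il1a* was −0.22 without sgKRT19 5, 0.67 without sgKRT19 6 and 0.13 without sgKRT19 8.

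**Figure D3:**
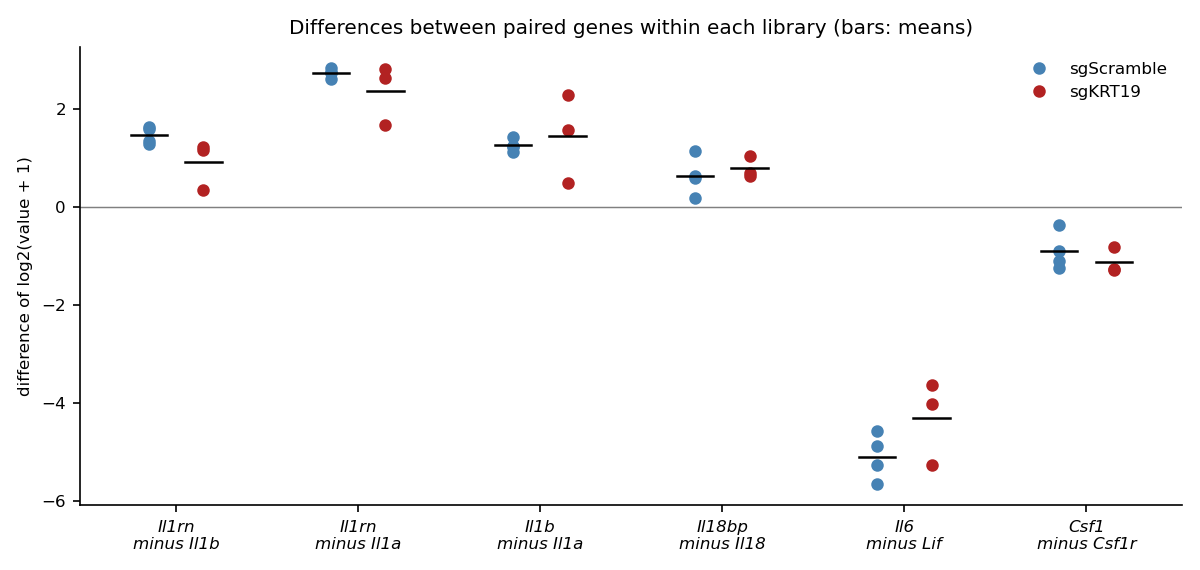
Differences of log2(value + 1) between 2 genes of the same library (y axis) for 6 pairs, with 1 point per library (sgScramble blue, sgKRT19 red) and bars at the group means. The groups are apart for *Il1rn* minus *Il1b* and overlap for the other 5 pairs.

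Receptors of the IL-1 family moved in both directions. *Il1r2*, a decoy receptor that binds IL-1 without signalling, was at 182, 119, 128 and 123 in sgScramble 1 to 4 and at 432, 348 and 355 in sgKRT19 5, 6 and 8, a log2 fold change of 1.46 with a standard error of 0.186 (limma adjusted p = 0.000394). *Il1r1*, the signalling receptor, was at 1865 to 2496 and 1676 to 1886, and did not pass the test (−0.26, adjusted p = 0.147). *Sigirr*, an inhibitory member of the receptor family, fell from 800 to 909 in sgScramble to 424 to 617 in sgKRT19 (log2 fold change −0.81, adjusted p = 0.00227). Of the 9 receptors and binding proteins, 4 were higher (*Il18rap*, *Il1r2*, *Il18bp* and *Il18r1*), 2 lower (*Sigirr* and *Il1rap*) and 3 did not pass, with a median log2 fold change of 0.30. *Il1r2*, *Il1r1*, *Il18r1* and *Il18rap* lie in 1 stretch of 478 kb on chromosome 1. Of the IL-36 ligands, *Il36g* was at 0.988 to 23.2 in sgScramble and 14 to 15.8 in sgKRT19 without a call (log2 fold change 1.17, adjusted p = 0.223), but it was called without sgScramble 1 (1.76, adjusted p = 0.0443) and was at 0.56 without sgScramble 2, and *Il36a* was under the filter. *Il36b*, *Il36rn* and *Il1f10* were not analysed here. Downstream, 2 of 10 signalling genes were higher, the adaptor *Myd88* (0.65, adjusted p = 0.00209) and the kinase *Irak2* (0.51, adjusted p = 0.00672), and the kinase *Irak1* was lower (−0.51, adjusted p = 0.0187). The call of *Irak1* was lost without sgScramble 2 or sgKRT19 5 (adjusted p of 0.0569 and 0.0715), and that of *Irak2* when scaling by library size alone (adjusted p = 0.0872).

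Of 10 genes of the inflammasome, the machinery that cuts IL-1β and IL-18, 6 were called. *Casp1*, the protease itself, was at 317, 214, 205 and 249 in sgScramble 1 to 4 and at 502, 563 and 1009 in sgKRT19 5, 6 and 8, a log2 fold change of 1.44 with a standard error of 0.245 (limma adjusted p = 0.00195). *Pycard*, the adaptor ASC that joins sensors to caspase-1, rose by 1.14 on the log2 scale (adjusted p = 0.00474). Among sensors, *Nlrp6*, best known from intestinal epithelium, was at 56.6 to 87.3 in sgScramble and 431 to 634 in sgKRT19, a log2 fold change of 2.96 with a standard error of 0.21 (adjusted p = 2.89e-05). *Nlrp3*, a sensor of macrophages, was at 60.3 to 135 and 78.8 to 136 and did not pass (0.33, adjusted p = 0.405). *Aim2*, a sensor of cytosolic DNA, fell by 0.86 on the log2 scale (adjusted p = 0.00138). *Mefv*, which encodes pyrin, rose by 1.01 (adjusted p = 0.0147), a call lost without sgKRT19 8 (adjusted p = 0.0515) and when scaling by library size alone (adjusted p = 0.0515). With *Gsdmd*, the pore-forming gasdermin D (0.37, adjusted p = 0.0406), 5 were higher, 1 was lower and 4 did not pass, with a median log2 fold change of 0.42. The call of *Gsdmd* was lost in 11 of 17 alternatives. Its adjusted p was 0.0676, 0.0722, 0.0637 and 0.0921 without sgScramble 1 to 4, 0.0558 and 0.148 without sgKRT19 6 and 8, 0.404 by library size alone, 0.0609 with no filter on low values, 0.0502 by edgeR, 0.0543 by voom and 1 in the test against a fold change of 1.5. These are transcript levels and give no measure of cleavage.

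Myeloid markers that bear on *Il1b* moved unevenly. Of 9 tested neutrophil markers 5 were higher (*S100a8*, *S100a9*, *Csf3r*, *Cxcr2* and *Retnlg*) and none lower. The sums of the list were 848 to 1645 in sgScramble and 2347 to 2488 in sgKRT19. *Mmp9* was the largest part of each sum and did not pass (limma adjusted p = 0.0651), and neither did *Mmp8*, *Cd177* or *Trem1*. *Ly6g*, a defining neutrophil marker, had group means of 2.1 and 3.66 and was under the filter, near the floor of 3 reads. Of 10 macrophage markers 4 were higher and 1 lower, and their sums overlapped (19553 to 27018 and 25713 to 31419). Of 7 dendritic cell markers 3 were higher and none lower (sums 392 to 476 and 655 to 823). Keratinocyte markers, which bear on *Il1a* and *Il18* in tumors beneath the skin, had sums of 283 to 531 and 669 to 840, with 2 higher and 1 lower of 6 tested and *Krt1* and *Krt5* at means of at most 6.29. Most of the difference between these sums was *Ivl*, at 78.8 to 254 and 356 to 582. *Krt15* was also higher, *Lor* was lower, and *Krt14*, *Krt10* and *Trp63* did not pass. No listed marker of any cell type was at 0 in every library. The part of these cells in the cytokine values was not tested.

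**Figure D4:**
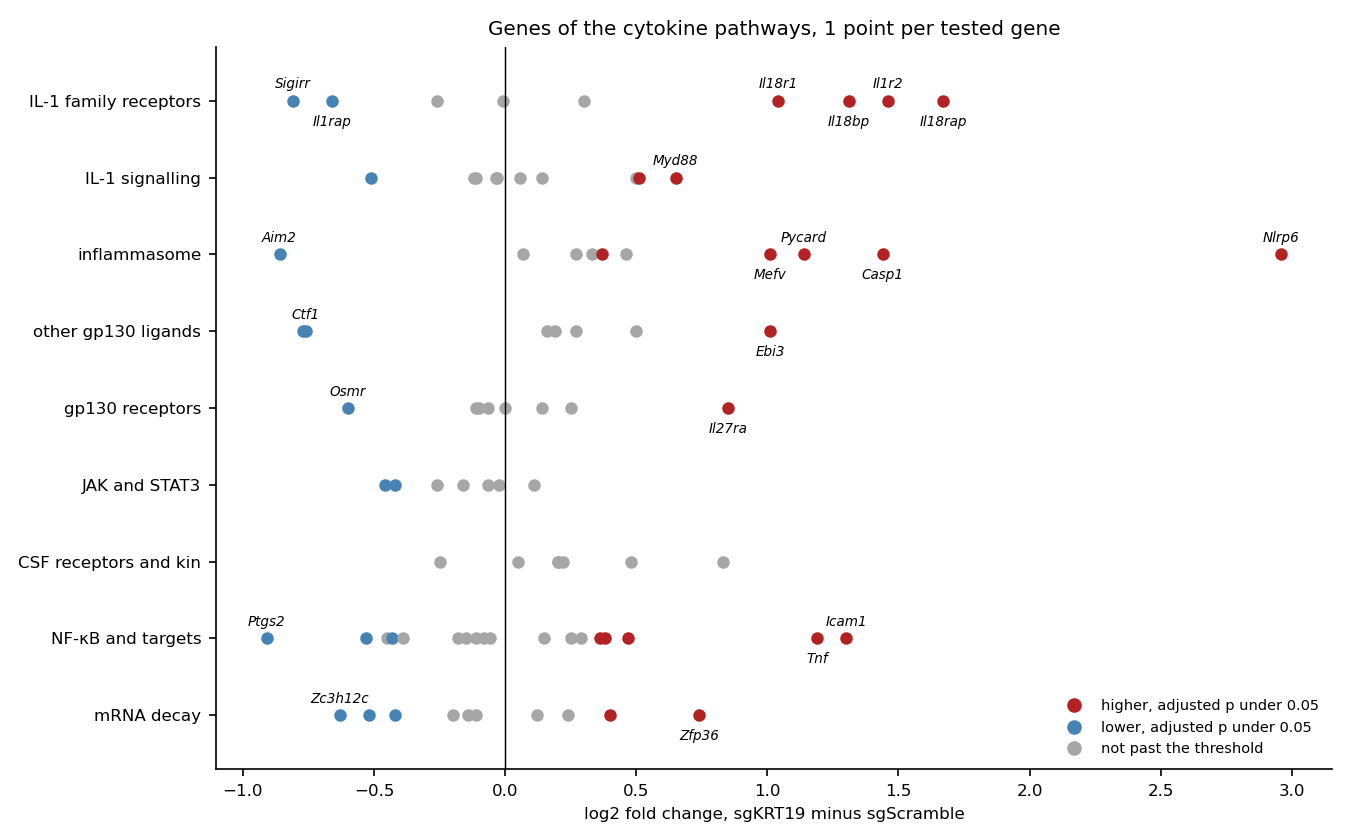
Log2 fold changes (x axis, sgKRT19 minus sgScramble) of tested genes in 9 lists around the cytokines, 1 point per gene, red where higher and blue where lower with an adjusted p under 0.05 and grey otherwise. IL-1 family receptors spread from −0.81 (*Sigirr*) to 1.67 (*Il18rap*), *Nlrp6* stands at 2.96, and no gene of the CSF list is colored.

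Among gp130 cytokines, *Lif* was slightly lower and *Il6* was at low counts without a call. *Lif* (chr11:4257557-4272514, plus strand) was at 629, 695, 500 and 640 in sgScramble 1 to 4 and at 369, 459 and 503 in sgKRT19 5, 6 and 8. The groups met at their edges, since sgKRT19 8 lay just above sgScramble 3. The mean fell from 616 ± 82.6 (n = 4) to 444 ± 68.4 (n = 3), and the log2 fold change was −0.47 with a standard error of 0.156 (95% interval −0.82 to −0.13, limma adjusted p = 0.0399). The call did not survive leaving out sgScramble 1, 2 or 4 or sgKRT19 5 or 6, with adjusted p of 0.0672, 0.111, 0.0889, 0.141 and 0.0678. The window before its RefSeq start, chr11:4257318-4257567 (GRCm38.p6, plus strand), is shown as the only one of a called member with an NF-κB-type match, 178 bases before the start, and it also holds an AP-1 match 228 bases before it.
*Lif*: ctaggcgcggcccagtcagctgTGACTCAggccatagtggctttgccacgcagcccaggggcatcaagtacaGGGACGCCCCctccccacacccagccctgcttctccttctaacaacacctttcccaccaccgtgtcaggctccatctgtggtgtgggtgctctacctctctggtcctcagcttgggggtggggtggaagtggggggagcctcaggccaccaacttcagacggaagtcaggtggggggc

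*Il11* (chr7:4772373-4782859, minus strand), a gp130 cytokine linked to fibrosis, was at 58.5, 44.5, 48.4 and 45.4 in sgScramble 1 to 4 and at 35.8, 30 and 31.5 in sgKRT19 5, 6 and 8. All 3 sgKRT19 libraries were below the sgScramble libraries, but the change missed the threshold, at a log2 fold change of −0.58 with a standard error of 0.221 (95% interval −1.07 to −0.09, limma adjusted p = 0.0656). Scaling by library size alone called it (−0.79, adjusted p = 0.0187), a scaling under which the median of all genes shifted to −0.21. *Il6* (chr5:30013114-30019981, plus strand) rested on 11 to 38 reads per library, with values of 20.4, 12.8, 20.1 and 15.8 in sgScramble 1 to 4 and 22, 11 and 39.9 in sgKRT19 5, 6 and 8. The lowest and the highest of the 7 values were both sgKRT19 libraries. The log2 fold change was 0.32 with a 95% interval of −0.60 to 1.23 (adjusted p = 0.57), and it turned to −0.12 without sgKRT19 8, so 1 library set its sign. *Il6* minus *Lif* within a library differed by 0.79 between the groups (exact permutation p = 0.229), by 0.45 without sgKRT19 8 and by 1.27 without sgKRT19 6. Fibroblasts are a known source of all 3 cytokines, and the fibroblast markers overlapped between the groups, as given beside *Il33*.

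The receptors and the STAT3 branch downstream of these ligands gave few calls. *Il6st*, the common gp130 chain, was at 4384 to 6832 in sgScramble and 5238 to 5447 in sgKRT19 (−0.067, limma adjusted p = 0.765), and neither *Il6ra*, *Lifr* nor *Il11ra1* passed the test. *Il11ra1* and *Il11ra2* are close copies whose reads may have been split between them, so their values are uncertain. *Osmr*, the oncostatin M receptor, fell by 0.60 on the log2 scale (adjusted p = 0.0103), and *Il27ra*, the IL-27 receptor of lymphocytes, rose by 0.85 (adjusted p = 0.0148), a call lost without sgKRT19 5 (adjusted p = 0.0537) and under library size alone (adjusted p = 0.0502). Of 8 receptors 1 was higher, 1 lower and 6 did not pass. Of 7 other ligands, *Ebi3*, a subunit of IL-27, was higher (1.01, adjusted p = 0.00941), whereas *Ctf1* (cardiotrophin-1) and *Clcf1* were lower and 4 did not pass. The call of *Ctf1* (−0.76, adjusted p = 0.025) was lost without sgScramble 3 or 4 or sgKRT19 6 or 8 (adjusted p of 0.0556, 0.0547, 0.0835 and 0.0734). *Clcf1* overlapped between the groups, at 3459 to 5664 and 2228 to 3511, with a log2 fold change of −0.77 (adjusted p = 0.015), and its call was lost without sgKRT19 5 or 6 (adjusted p of 0.0604 and 0.0549). *Stat3* was at 5822 to 6383 and 4788 to 5415 without a call (−0.26, adjusted p = 0.0613), and *Socs3*, its feedback inhibitor, was at 1788 to 2516 and 1910 to 2755 (0.11, adjusted p = 0.59). Of 7 genes of the JAK and STAT3 branch 2 were lower, the phosphatase *Ptpn11* (−0.46, adjusted p = 0.0124) and *Pias3* (−0.42, adjusted p = 0.0271), and none higher. DESeq2 and scaling by library size alone each called 3 of the 7. Without sgScramble 2, 3 or 4 or sgKRT19 5 or 6, limma called 1. The call of *Pias3* was lost without any one of sgScramble 2, 3 or 4 or sgKRT19 5 or 6 (adjusted p of 0.0732, 0.0565, 0.0708, 0.0878 and 0.082).

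The 2 colony-stimulating factors differed in outcome. *Csf2* (chr11:54247271-54249667, minus strand) was at 48.3, 14.8, 34.7 and 22.3 in sgScramble 1 to 4 and at 61.3, 83 and 76.7 in sgKRT19 5, 6 and 8. Every sgKRT19 library was above every sgScramble library, and sgScramble 1 came closest. The mean rose from 30 ± 14.7 (n = 4) to 73.6 ± 11.2 (n = 3), a ratio of 2.45 and a log2 fold change of 1.38 with a standard error of 0.367 (95% interval 0.57 to 2.20, limma adjusted p = 0.0168). The call was lost without sgKRT19 6 (1.29, adjusted p = 0.0542) or sgKRT19 8 (1.35, adjusted p = 0.0506). These values rest on 15 to 83 reads per library, and 12.0% of the exonic bases of *Csf2* are shared with the opposite-strand gene *Gm12223*. *Gm12223* had a mean of 7.52 ± 2.04 in sgScramble and 23.8 ± 2.54 in sgKRT19 (log2 fold change 1.56, adjusted p = 0.00498). Since it is not stated whether reads were counted by strand, the value of *Csf2* may hold reads of its partner and the reverse, and this was not tested. T cells are known to make CSF2, and the part of the rise in T cell markers given for IL-18 in the value of *Csf2* was not tested. The window before its RefSeq start, chr11:54249900-54250149 (GRCm38.p6, minus strand), is shown as that of the member with the largest ratio. That start lies 232 bases before the GENCODE gene start, and the capitals mark a C/EBP match 145 bases before it.
*Csf2*: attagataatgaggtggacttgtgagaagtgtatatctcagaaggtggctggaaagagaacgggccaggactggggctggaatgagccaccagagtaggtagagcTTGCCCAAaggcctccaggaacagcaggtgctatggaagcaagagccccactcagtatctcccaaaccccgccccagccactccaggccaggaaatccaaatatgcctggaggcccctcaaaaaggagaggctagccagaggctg

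*Csf1* (chr3:107741048-107760469, minus strand) was at 1399, 1841, 1243 and 1815 in sgScramble 1 to 4 and at 1208, 1405 and 1536 in sgKRT19 5, 6 and 8. These ranges overlap across most of their width, with sgKRT19 5 the lowest library. The log2 fold change was −0.17 with a standard error of 0.159 (95% interval −0.53 to 0.18, limma adjusted p = 0.418). Its receptor *Csf1r*, a macrophage gene, was at 2361 to 3864 and 2693 to 3426, a log2 fold change of 0.051 (adjusted p = 0.832) whose sign turned under several alternatives, and *Csf1* minus *Csf1r* differed by −0.22 between the groups (exact permutation p = 0.457). That difference was −0.047 without sgScramble 2, −0.15 and −0.14 without sgKRT19 5 and 6, −0.34 without sgScramble 3 and −0.38 without sgKRT19 8. Of 7 tested genes of the CSF axis 0 were called by limma (2 at an unadjusted p under 0.05), 0 by edgeR and 1, *Il5ra*, by DESeq2, and limma called *Csf2rb* without sgScramble 4 (0.64, adjusted p = 0.00957) and *Il3ra* without sgKRT19 6 (0.40, adjusted p = 0.0354). With no filter on low values limma called *Il5*, an eosinophil cytokine (log2 fold change −1.41, adjusted p = 0.0295), at 5.6, 4, 5.5 and 6.5 in sgScramble 1 to 4 and 1.2, 1 and 2.1 in sgKRT19 5, 6 and 8, the latter all under the floor of 3 reads. *Il34*, the other ligand of *Csf1r*, was at 645 to 830 and 759 to 929 (0.20, adjusted p = 0.265). *Csf2ra*, the ligand-binding chain of the CSF2 receptor, was at 349 to 585 and 309 to 460 (−0.25, adjusted p = 0.339). *Csf2rb* and *Csf2rb2*, close copies that may share reads, had log2 fold changes of 0.48 and 0.22 without a call in all 7 libraries. *Il3*, which lies 15.6 kb from *Csf2*, had at most 1.2 in any library, under the floor.

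Both lists around the control of cytokine transcripts were mixed. Of 18 NF-κB subunits, inhibitors and target genes, 5 were higher, 3 lower and 10 did not pass, with a median log2 fold change of −0.07. *Icam1*, an adhesion molecule, was at 4764 to 5243 in sgScramble and 11002 to 13572 in sgKRT19 (log2 fold change 1.30, limma adjusted p = 4.99e-05), and *Tnf*, at 42.5 to 62.1 and 112 to 137, rose by 1.19 (adjusted p = 0.00195). *Ptgs2*, the inducible cyclooxygenase, fell by 0.91 on the log2 scale (adjusted p = 0.00783). *Nfkb1* had a log2 fold change of −0.53 (adjusted p = 0.0145), lost without sgKRT19 5 (adjusted p = 0.0516). The calls of *Tnfaip3* (0.47), *Traf1* (0.38) and *Nfkbiz* (−0.43) were also lost without single libraries. Without sgKRT19 6 or 8 *Tnfaip3* had adjusted p of 0.051 and 0.0589, and without sgScramble 2 or sgKRT19 8 *Traf1* had 0.0522 and 0.0506. *Nfkbiz* had 0.102, 0.0794, 0.129 and 0.0829 without sgScramble 2, sgScramble 4, sgKRT19 5 and sgKRT19 6. *Tnfaip3* and *Traf1* lost their calls under library size alone too (adjusted p of 0.196 and 0.312). Without sgScramble 2, sgKRT19 5 or sgKRT19 8, 5 of the 18 were called in place of 8.

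Of 10 genes of mRNA decay, which sets the lifetime of AU-rich cytokine transcripts, 2 were higher, 3 lower and 5 did not pass. *Zfp36*, which encodes the decay factor tristetraprolin, rose from 781 to 882 in sgScramble to 1202 to 1724 in sgKRT19 (log2 fold change 0.74, limma adjusted p = 0.00337). Its relative *Zfp36l1* was at 6615 to 9575 and 5212 to 5941 (−0.52, adjusted p = 0.0176), a call lost without sgScramble 2 or sgKRT19 8 (adjusted p of 0.0529 and 0.0636). *Hnrnpd* was higher (0.40, lost without sgScramble 2 or sgKRT19 6, with adjusted p of 0.0551 and 0.065, and by library size alone, with 0.282). *Zc3h12c* was lower (−0.63, lost without sgKRT19 5 at an adjusted p of 0.0588), and so was *Khsrp* (−0.42, lost without sgScramble 2, sgScramble 4, sgKRT19 5 and sgKRT19 8, at an adjusted p of 0.118, 0.109, 0.16 and 0.0824). Without sgScramble 2 the list had 2 calls, and without sgKRT19 5 or 8 it had 3, in place of 5. Over all lists, 35 of 86 tested genes were called, 40.7% beside 34.0% of all genes, 20 higher and 15 lower, or 12 and 23 when scaled by library size alone.

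On a scale of normalized reads per kilobase of exon, which allows levels of different genes to be compared roughly, *Il33* led in both groups and *Il6* was last. The length is that of all annotated exons of a gene merged (5535 bases for *Il1rn*, 800 for *Csf2*). The place of a gene in the order thus depends on its annotation. In sgScramble the order of mean levels was *Il33* (2925), *Csf1* (298), *Il18* (259), *Il1b* (181), *Il1rn* (173), *Lif* (142), *Il1a* (71.8), *Csf2* (37.5), *Il11* (23.6) and *Il6* (7.12). Neighbours in this order were apart in every library at 3 steps, *Il33* above *Csf1*, *Lif* above *Il1a* and *Il11* above *Il6*, and the others overlapped in their ranges. In sgKRT19 it was *Il33* (1345), *Il18* (572), *Il1b* (311), *Csf1* (262), *Il1rn* (200), *Il1a* (116), *Lif* (102), *Csf2* (92.1), *Il11* (15.6) and *Il6* (10). *Il33* and *Il18*, *Il18* and *Il1b*, *Csf1* and *Il1rn*, and *Csf2* and *Il11* were apart, and the other neighbours overlapped. *Il18* moved from the third to the second place and *Csf1* from the second to the fourth. Within a group, the tumors also differed across members at once. In sgScramble 2, 6 members were at the group's lowest value (*Il1a*, *Il1b*, *Il1rn*, *Il6*, *Il11* and *Csf2*), and in sgScramble 1, 7 were at its highest. In sgKRT19 5, 6 members were at the lowest value, *Il33*, *Lif* and *Csf1* among them, whereas *Il1b*, *Il18* and *Il11* were at the highest. The share of all tested genes at their lowest or highest in each library is not given here, so whether these counts are particular to the cytokines was not tested. The members' median coefficient of variation was 21.3% in sgScramble and 17% in sgKRT19, beside 15% and 15.7% over all tested genes.

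Sequence upstream of the members was compared with that of other genes. RefSeq promoters of GRCm38.p6 matched all 10 members, in 14 windows of 250 bases before a start. The motifs searched on both strands were TATAAA, AP-1 (TGANTCA), C/EBP (TTGCNNAA), STAT (TTCNNNGAA) and an NF-κB-type site, and no match in the members' windows overlapped another. TATAAA was found in 4 members (*Il1a*, *Il1b*, *Il33* and *Il18*) and in 12.4% of 32817 upstream windows of all genes. AP-1 was found in 5 members and 6.75% of windows, C/EBP in 3 members and 9.57%, the NF-κB-type site in 3 members (*Il6*, *Lif* and *Csf1*) and 7.25%, and the STAT motif in none of the 10 and in 7.01%. A member counts here if any of its windows holds the letters, and members have 1 to 3 windows, so the shares are not on equal terms. Of the 5 called members 3 had TATAAA, with *Il1b* and *Il18* higher and *Il33* lower. A match is a run of letters and not a measured binding site.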

How the data were processed

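RNA-seq of 7 tumors (4 sgScramble, 3 sgKRT19) was analysed, 1 library per tumor. The deposited table holds a signal for 38026 genes, which the authors made from single-end reads by scaling each library's gene counts with its size factor. The submitters' processing notes name the build mm10. The methods name a stranded total RNA kit, the labels polyA RNA. The aligner, the counting program and its use of strand are not given in the sources used here. Whole reads were recovered from all values of every library (tolerance 0.1 reads), and every column of the table was used. Positions come from GENCODE M21 of GRCm38, whose versioned identifiers matched 37167 genes (97.74%), and upstream sequences from RefSeq (GRCm38.p6).

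Of these genes, those reaching a value of 10 in 3 or more libraries entered limma 3.58.1 (lmFit, eBayes with trend) on log2(value + 1), with group as the term, Benjamini-Hochberg adjustment over 21322 genes and a threshold of 0.05. Adding 1 makes the changes of low genes look smaller. Differences between paired genes were compared by exact two-sided permutation over 35 splits, with the smaller one-sided p doubled. Alternatives were edgeR 4.0.16, DESeq2 1.42.0 and limma-voom on the recovered reads, other scalings, filters and pseudocounts, a test against a fold change of 1.5, and leaving out each library. The scripts (Python 3.11.15, R 4.3.3) were tested on simulated data. Replicates differed by 18.8 to 81.0 chi-square units per degree of freedom, far above counting error, so none was the same library sequenced again. This comparison does not detect a second library made from the same tumor. The reads carry no molecular identifiers, and the floor of 3 reads covers counting error only.

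All members were named. From each list of related genes, called genes without overlap between groups were named, at most 4 in each direction by size of log2 fold change, as were the genes of the 6 paired differences. Other list genes were named for their role (*Il1rl1*, *Il1r1*, *Nlrp3*, *Stat3*, *Socs3* and the like) after their values were seen. The members, lists and marker genes were chosen with earlier results of these data known, and no set test was run.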

Additional observations from a re-analysis of the deposited data

Results flagged for a closer look

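In 61 searched values of the sgScramble group, which has 4 libraries, 4 had a library far from the others by Dixon's ratio of gap to range, past its 95% limit, beside about 1 in 20 by chance. *Il1r2* had a ratio of 0.854, with sgScramble 1 at 182 above the others at 119 to 128. For *Il1rap* the ratio was 0.883, with sgScramble 4 at 275 above 178 to 189, and without that library the call of *Il1rap* was lost (adjusted p = 0.0701 by limma). *Sigirr* gave 0.884, with sgScramble 4 at 800 below 896 to 909. The summed skeletal muscle markers gave 0.977, with sgScramble 3 at 2843 above 111 to 173. The sgKRT19 group has 3 libraries and was not searched. None of the 10 cytokine genes was among these values.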

How the results depend on the processing

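Over 17 alternatives, *Il33* (log2 fold change −1.33 to −1.02) and *Il18* (0.94 to 1.32) kept their direction and their call except in the test against a fold change of 1.5 (adjusted p = 0.112 and 0.129). In that test 0 members were called, 0 higher and 0 lower (3 at an unadjusted p under 0.05), beside 1336 of all genes (728 higher, 608 lower) and 6 pathway genes (6 higher, 0 lower). The edgeR, DESeq2 and voom fits each called 5 members, beside 7188, 7971 and 7135 of all genes. Scaling by library size alone shifted the median of all genes to −0.21 and called 2177 higher and 5727 lower, with 12 pathway genes higher and 23 lower. Leaving out each library gave 3 to 5 members called (2 to 3 higher, 1 to 2 lower), 4886 to 7739 genes (2257 to 3637 lower, 2257 without sgScramble 2), and 26 to 38 pathway genes (8 to 16 lower, 8 without sgKRT19 5). The sign turned for *Il6* without sgKRT19 8 (range −0.12 to 0.77 over the libraries left out), for *Il1b* minus *Il1a* without sgKRT19 5 (−0.22 to 0.67), and for *Csf1r* by library size (−0.16) and without sgScramble 1, sgScramble 2 and sgKRT19 6 (−0.0023, −0.045 and −0.047, range −0.047 to 0.19). The cause was not tested. For 32 named pathway genes and 544 gene and setting pairs, 477 kept the call, 67 lost it (26 in the fold test, 34 without a library) and 0 reversed. *Il6* and *Il11* had no value under the filter of 50, and *Csf2* passed it through its sgKRT19 libraries alone. No paired analysis was possible because the groups share no replicate number. *Il6*, *Il11* and *Csf2* rest on 11 to 83 reads per library.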
